A study of Mus musculus with 24 samples.

Results

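CC chemokines are small secreted proteins that attract leukocytes by binding G protein-coupled receptors of the Ccr family, and they are named for a pair of adjacent cysteines near the start of the mature protein. Most of the mouse genes for inflammatory CC chemokines lie together on chromosome 11. In the brain they are made mainly by microglia, border macrophages, astrocytes and vessel cells during inflammation, and Ccr2 ligands are best known for drawing monocytes out of the blood. The genes described are Ccl2, Ccl3, Ccl4, Ccl5, Ccl6, Ccl7, Ccl8, Ccl9, Ccl11 and Ccl12, taken by symbol, 10 of the 33000 genes in the count table. All 10 had at least 1 count, and 6 passed the filter on low counts when the libraries of each mouse were summed.

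RNA came from the frontal cortex of C57BL/6 mice at 3 months after birth, from 3 wild-type (WT) mice and 3 homozygous GFAP-IL6 mice, which express interleukin 6 from a transgene driven by the Gfap promoter, active in astrocytes. Each mouse gave 4 3'Pool-seq libraries, in which reads come from the 3' ends of mRNA: 2 ng or 1 ng of amplified cDNA was tagmented, each in a set A and a set B, a division the labels leave unexplained. The labels name no treatment. The 4 libraries of a mouse share its RNA, so the mouse was the replicate (n = 3 per genotype), and expression is given as CPM, the counts of a gene relative to its library's total after TMM scaling, which corrects totals for a few very abundant genes.

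Between 1524165 and 12256374 reads were counted per library, and between 7852743 and 37582644 per mouse. The 10 genes together held 8821 of these counts, so for most of them counting error was large. Gfap, the transgene's promoter source and an astrocyte marker, was at 16.01 to 23.5 CPM in the WT mice and 80.9 to 146.4 CPM in the GFAP-IL6 mice. All marker genes looked up for neurons, astrocytes, oligodendrocytes and microglia of cortex were detected. Choroid plexus markers were uneven between mice, with a summed level of 4068 CPM in the highest WT mouse and 105.1 CPM in the lowest.

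The members formed 2 blocks on chromosome 11 of mm10. The first block held Ccl2 (chr11:82035571-82037453), Ccl7 (chr11:82045712-82047525), Ccl11 (chr11:82057823-82062955), Ccl12 (chr11:82101845-82103400) and Ccl8 (chr11:82115185-82116799), all on the plus strand within 81.2 kb. The second block, 1409.0 kb further on, held Ccl5 (chr11:83525778-83530518), Ccl9 (chr11:83572919-83578636), Ccl6 (chr11:83587882-83593087) and Ccl3 (chr11:83647844-83649355) on the minus strand and Ccl4 (chr11:83662584-83664683) on the plus strand, within 138.9 kb. Ccl9 and Ccl6 have 4 exons and the others have 3. No exon of a member overlapped an exon of another gene, although Gm17268 overlaps Ccl2 and E230016K23Rik overlaps Ccl6 elsewhere in the gene. In the last 300 nt of the members, no stretch of 100 nt or more was 97% identical to another gene's transcript. Reads of this method lie near the 3' end but can also start further upstream, which was not searched.

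The coding sequence around the cysteine pair that names the family is shown for the 5 members whose WT and GFAP-IL6 mice did not overlap. Each window is 48 nt of the GENCODE transcript, 5′ to 3′, with the adjacent cysteine codons in capitals and 7 codons on each side.
Ccl12, codons 33 and 34 in capitals: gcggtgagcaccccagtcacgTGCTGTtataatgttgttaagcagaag
Ccl8, codons 32 and 33 in capitals: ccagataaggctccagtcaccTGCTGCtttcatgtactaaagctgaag
Ccl2, codons 34 and 35 in capitals: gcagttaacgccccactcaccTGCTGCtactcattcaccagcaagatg
Ccl5, codons 33 and 34 in capitals: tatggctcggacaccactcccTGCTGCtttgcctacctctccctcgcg
Ccl6, codons 50 and 51 in capitals: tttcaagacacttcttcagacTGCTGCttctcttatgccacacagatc
Ccl12 and Ccl8 had the same base at 32 of the 48 positions (66.7%), and Ccl2 shared 28 positions (58.3%) with each of them. Ccl12 shared 14 positions (29.2%) with Ccl5 and 18 positions (37.5%) with Ccl6.

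RefSeq promoter sequences on GRCm38.p6 were at hand for 5 of the 10 members. Those of Ccl12 and Ccl8 are shown because these neighbouring genes gave the highest fold changes of the family. Each is the 250 bases before the start of transcription on the plus strand, with motif matches in capitals.
Ccl12, chr11:82101595-82101844: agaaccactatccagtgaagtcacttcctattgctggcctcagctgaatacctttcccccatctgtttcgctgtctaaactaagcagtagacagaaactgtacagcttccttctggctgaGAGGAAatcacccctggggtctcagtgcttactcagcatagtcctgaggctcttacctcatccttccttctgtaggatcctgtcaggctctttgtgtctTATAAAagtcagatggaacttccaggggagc
Ccl8, chr11:82114935-82115184: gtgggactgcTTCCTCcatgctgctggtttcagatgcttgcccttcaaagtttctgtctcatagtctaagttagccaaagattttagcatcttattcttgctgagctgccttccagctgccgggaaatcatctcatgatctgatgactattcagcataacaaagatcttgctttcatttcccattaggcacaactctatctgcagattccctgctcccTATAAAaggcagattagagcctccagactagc
Both held the TATA motif TATAAA, 31 bases before the start in Ccl12 and 32 bases before it in Ccl8, against 13.6% of 32851 promoters with a match on either strand within 300 bases. Both also held the PU.1 core GAGGAA, on the plus strand in Ccl12 and on the minus strand in Ccl8, which 28.3% of all promoters hold. The STAT motif TTCNNNGAA, the AP-1 motif TGACTCA, the C/EBP motif TTGCNNAA, the interferon response motif GAAANNGAA and the NF-kB consensus had no match in either window. They are held by 8.30%, 5.20%, 10.8%, 8.56% and 4.51% of promoters, in that order. No matches of different motifs overlapped in these windows. Of the other member promoters at hand, that of Ccl9 held TATAAA and the NF-kB consensus. That of Ccl3 held GAGGAA and the interferon response motif, and that of Ccl6 held none of these motifs. Ccl9 was not called higher in GFAP-IL6 mice, and Ccl3 had too few counts to be tested. A link of these motifs to the levels was not tested.

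The first comparison asked which members differed between GFAP-IL6 and WT cortex. In the summed libraries Ccl12, Ccl8 and Ccl5 rose in GFAP-IL6 mice, no member fell, Ccl2, Ccl6 and Ccl9 did not pass, and Ccl3, Ccl4, Ccl7 and Ccl11 had too few counts to be tested. A gene was called at a Benjamini-Hochberg adjusted p under 0.05 in edgeR's quasi-likelihood test, over all genes tested, if its log2 fold change was also beyond 1 in size. Of all 14621 genes tested, 1.2% were called higher in GFAP-IL6 mice, against 3 of the 6 members tested. Members low in WT mice could pass the filter on low counts through the GFAP-IL6 mice alone. Without that filter 4 of all 10 members were called higher, against 229 of the 20629 genes then tested. The median log2 fold change over the 10 members was then 0.51, with 7 above 0, against 0.00 over all genes. In bulk tissue, more cells of a type and more RNA per cell cannot be told apart.

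**Figure D1:**
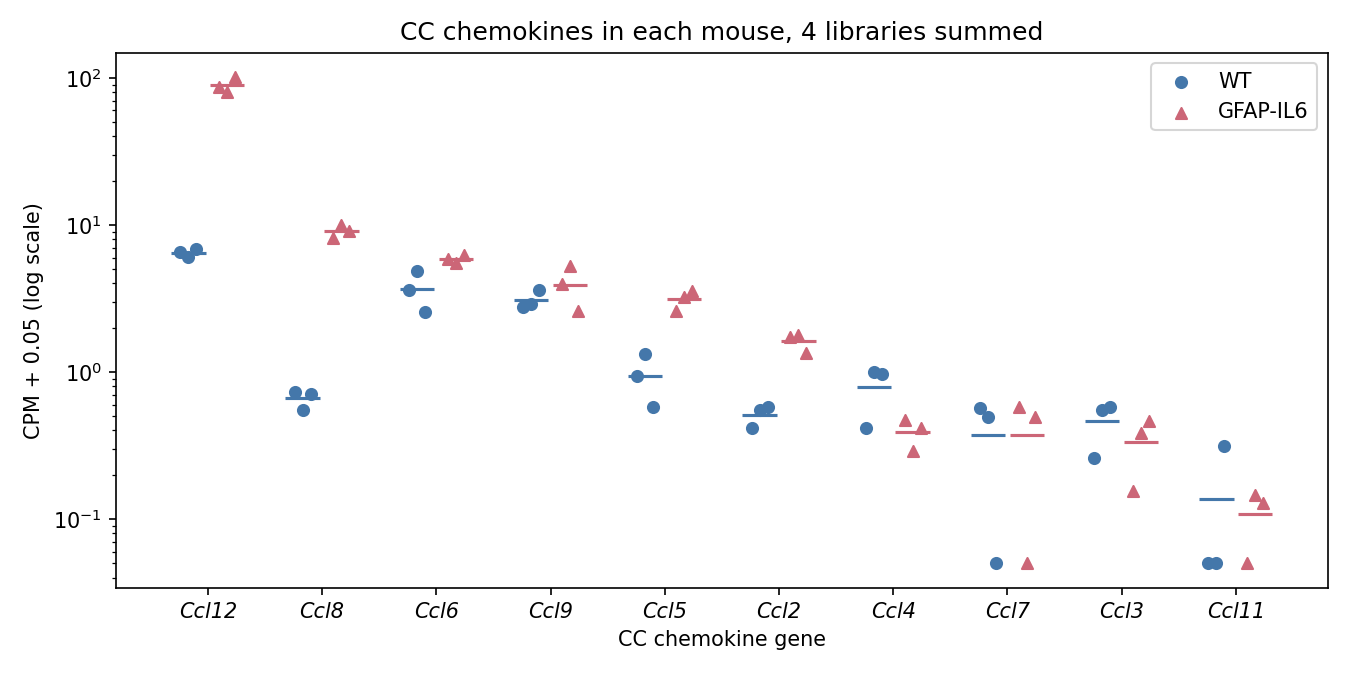
CPM of the 10 CC chemokine genes in each mouse with the 4 libraries summed, on a log scale after adding 0.05, with circles for the 3 WT mice, triangles for the 3 GFAP-IL6 mice and a line at each mean. For Ccl12 the triangles sit between 80.5 and 100.8 CPM and the circles between 5.98 and 6.82 CPM, while those of Ccl7, Ccl3 and Ccl11 overlap.

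Ccl12 is a ligand of Ccr2 with a role like that of Ccl2, and was the most abundant member in either genotype. It was at 6.45, 5.98 and 6.82 CPM in WT mice 1, 2 and 3 and at 86.5, 80.5 and 100.8 CPM in GFAP-IL6 mice 1, 2 and 3. The groups were far apart, and the GFAP-IL6 mice differed little from each other, with a coefficient of variation of 11.7%. The means were 6.42 ± 0.421 (SD, n = 3) and 89.3 ± 10.5 CPM (SD, n = 3), on 284 and 6385 counts. The log2 fold change was 3.81 with a standard error of 0.12 and an adjusted p of 1.2e-10 by edgeR, the lowest p of all genes tested. The fitted fold was 14.1.

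Ccl8, which in mice signals mainly through Ccr8, had 13, 9 and 5 counts in WT mice 1, 2 and 3 and 77, 208 and 351 counts in GFAP-IL6 mice 1, 2 and 3. In CPM these were 0.676, 0.499 and 0.656 against 8.12, 9.98 and 9.11. The GFAP-IL6 mice lay far above the WT mice and close to each other, while the WT counts were near the limit of detection. The log2 fold change was 3.91 with a standard error of 0.26 and an adjusted p of 4.16e-07 by edgeR. The ratio of the pooled CPM was 15.4 with an exact 95% counting interval of 10.5 to 23.5.

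Ccl2, the founding Ccr2 ligand, had 7, 9 and 4 counts in the WT mice and 16, 36 and 50 in the GFAP-IL6 mice. This was 0.364, 0.499 and 0.525 CPM against 1.69, 1.73 and 1.30 CPM. The groups were apart, but the test did not pass, with a log2 fold change of 1.76, a standard error of 0.43 and an adjusted p of 0.0512 by edgeR. Of 12 alternatives it passed in 2, library totals in place of TMM scaling (adjusted p = 0.0399 by edgeR) and no filter on low counts (adjusted p = 0.027 by edgeR). In the other 10 the adjusted p was up to 0.277, and it was 0.114 by DESeq2. The ratio of pooled CPM was 3.32, with an exact counting interval of 2.04 to 5.67.

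Ccl5, a ligand of Ccr1 and Ccr3 made by T cells and by many activated cells, was at 0.885, 1.27 and 0.525 CPM in the WT mice and at 2.53, 3.17 and 3.53 CPM in the GFAP-IL6 mice. The groups did not overlap. The log2 fold change was 1.71 with a standard error of 0.34 and an adjusted p of 0.0123 by edgeR, on 44 counts in WT and 226 in GFAP-IL6 mice. The call was lost without WT mouse 1 (adjusted p = 0.0631), without GFAP-IL6 mouse 2 (adjusted p = 0.0614) and without GFAP-IL6 mouse 3 (adjusted p = 0.127).

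Ccl6 and Ccl9, Ccr1 ligands found in rodents and expressed by myeloid cells, were the next most abundant members after Ccl12 in WT cortex in CPM. Ccl6 was at 3.54, 4.82 and 2.49 CPM in the WT mice and at 5.80, 5.47 and 6.20 CPM in the GFAP-IL6 mice. The groups did not overlap, yet the log2 fold change of 0.64 (SE 0.23) had an adjusted p of 0.324 by edgeR. Ccl9 was at 2.71, 2.83 and 3.54 CPM in the WT mice and at 3.90, 5.18 and 2.54 CPM in the GFAP-IL6 mice. These groups overlapped, because GFAP-IL6 mouse 3 was the lowest of all 6, and the log2 fold change was 0.36 (SE 0.29) with an adjusted p of 0.827 by edgeR.

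The remaining 4 members were at the edge of detection. Ccl3, a Ccr1 ligand, had 4, 9 and 4 counts in the WT mice and 1, 7 and 16 in the GFAP-IL6 mice. Ccl4, an attractant of leukocytes encoded next to Ccl3, had 7, 17 and 7 counts against 4, 5 and 14. In CPM that was 0.364, 0.942 and 0.919 against 0.422, 0.240 and 0.363, so the groups overlapped. The ratio of the pooled CPM was 0.484 for Ccl4, with an exact counting interval of 0.269 to 0.857 that takes no account of the spread between mice. An exact permutation test over the mice gave p = 0.2, two-sided. The same ratio was 0.920 (0.474 to 1.82) for Ccl3.

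Ccl7, a ligand of Ccr2 and other receptors, had 10, 8 and 0 counts in the WT mice and 5, 0 and 17 in the GFAP-IL6 mice, a ratio of 0.797 (0.408 to 1.58). Ccl11, the eosinophil attractant eotaxin and a Ccr3 ligand, had 0, 0 and 2 counts against 0, 2 and 3, a ratio of 1.63 (0.267 to 17.1). Ccl11 was at 0 in 11 of 12 WT libraries and in 8 of 12 GFAP-IL6 libraries. At this depth no difference was detectable for these genes. These intervals too take no account of the spread between mice, so differences within them or beyond them remain possible.

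Across the 6 members tested, the lowest GFAP-IL6 mouse was above the highest WT mouse for 5, all but Ccl9. That order was seen for 8.43% of all genes tested. Ccl3, Ccl4, Ccl7 and Ccl11, which were not tested, did not have it. Ccl2, Ccl8 and Ccl5, low in WT mice, could pass the filter through the GFAP-IL6 mice alone. This share is thus no support for a rise. With 3 mice against 3, an exact permutation test of a single gene cannot give a p under 0.1. It gave 0.1 for each of the 5 members in that order. The order of levels was also taken per kb of transcript, as CPM divided by the deposited gene length, although 3' reads need not scale with length. In WT mice Ccl12 led at 11.96 ± 0.784 CPM per kb (SD, n = 3), followed by Ccl6 at 2.51 ± 0.809 and Ccl5 at 1.68 ± 0.705. The WT ranges from Ccl6 down through Ccl5, Ccl8, Ccl4 and Ccl9 each overlapped the next, as did those of Ccl2, Ccl3, Ccl7 and Ccl11. In GFAP-IL6 mice Ccl12 was at 166.2 ± 19.5 CPM per kb, Ccl8 at 17.7 ± 1.82, Ccl5 at 5.78 ± 0.948 and Ccl6 at 4.04 ± 0.254, with no overlap between neighbours in this order. By this measure Ccl8 stood at rank 4 in WT mice and at rank 2 in GFAP-IL6 mice.

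The summed level of the 10 genes was 15.7 to 17.8 CPM in the WT mice and 106.7 to 124.8 CPM in the GFAP-IL6 mice, and most of the difference lay in Ccl12. Without Ccl12 the sums were 9.26 to 11.8 CPM and 23.1 to 26.2 CPM. By block, the genes from Ccl2 to Ccl8 summed to 7.90 ± 0.432 CPM in WT and 100.3 ± 10.2 CPM in GFAP-IL6 mice (SD, n = 3 each). Those from Ccl5 to Ccl4 summed to 8.69 ± 1.46 and 13.4 ± 0.870 CPM. In WT mice the blocks were thus at like levels, and in GFAP-IL6 mice the first was well above the second. Both statements rest on Ccl12, which alone was at a mean of 6.42 CPM in WT and 89.3 CPM in GFAP-IL6 mice.

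Ccl12 held between 33.6% and 41.9% of the counts on the 10 genes in WT mice and between 75.4% and 80.8% in GFAP-IL6 mice. Ccl8 held 2.80% to 4.305% and 7.30% to 9.35%. Ccl6 and Ccl9 together held 37.1% to 43.0% in WT mice, about as much as Ccl12, and 7.005% to 9.98% in GFAP-IL6 mice.

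**Figure D2:**
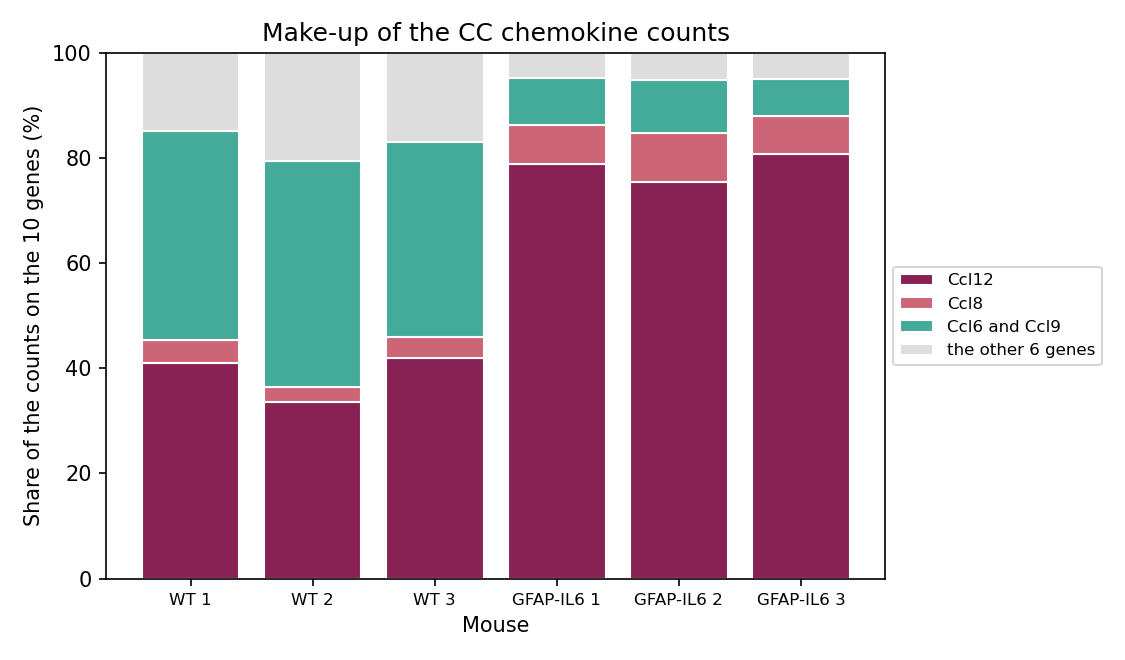
Share of the counts on the 10 CC chemokine genes held by Ccl12, by Ccl8, by Ccl6 and Ccl9 together, and by the other 6 genes, in percent, for each of the 6 mice. The Ccl12 share is 33.6% to 41.9% in the WT mice and 75.4% to 80.8% in the GFAP-IL6 mice.

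The ratio of Ccl12 to Ccl8 overlapped between the genotypes. It was 9.54, 12 and 10.4 in the WT mice and 10.6, 8.07 and 11.1 in the GFAP-IL6 mice, and the exact permutation test of the log2 ratio gave p = 0.7, two-sided. The ratio of Ccl12 to Ccl2 was 17.7, 12 and 13 in the WT mice and 51.2, 46.6 and 77.7 in the GFAP-IL6 mice. The ratio of Ccl12 to Ccl5 was 4.70 to 13 in WT and 25.4 to 34.2 in GFAP-IL6 mice. The ratio to Ccl6 was 1.24 to 2.74 and 14.7 to 16.3. None of these last ratios overlapped between genotypes, and each exact permutation test gave p = 0.1, the smallest this design allows. With 5 such ratios tested, that to Ccl9 included, no p could pass a correction.

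The comparison was repeated in each of the 4 sets of 6 libraries, 1 library per mouse. These sets share their mice, so they are repeat measurements and not new animals. Ccl12 and Ccl8 were called higher in every set, and no other member was called in any. Over all genes 0.681% were called higher in 2 ng A, 0.736% in 2 ng B, 0.758% in 1 ng A and 0.748% in 1 ng B, against 2 of 4, 2 of 4, 2 of 5 and 2 of 5 members tested. The log2 fold change of Ccl12 was 4.21 in 2 ng A, 3.41 in 2 ng B, 4.08 in 1 ng A and 3.59 in 1 ng B. That of Ccl8 was 4.39, 4.16, 4.77 and 3.08 in the same order. Ccl5 could be tested only with 1 ng of cDNA, with log2 fold changes of 1.53 in set A (adjusted p = 0.449 by edgeR) and 1.89 in set B (adjusted p = 0.103 by edgeR). Ccl6 ranged from 0.26 to 1.39 and Ccl9 from -0.14 to 1.08 on the log2 scale.

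**Figure D3:**
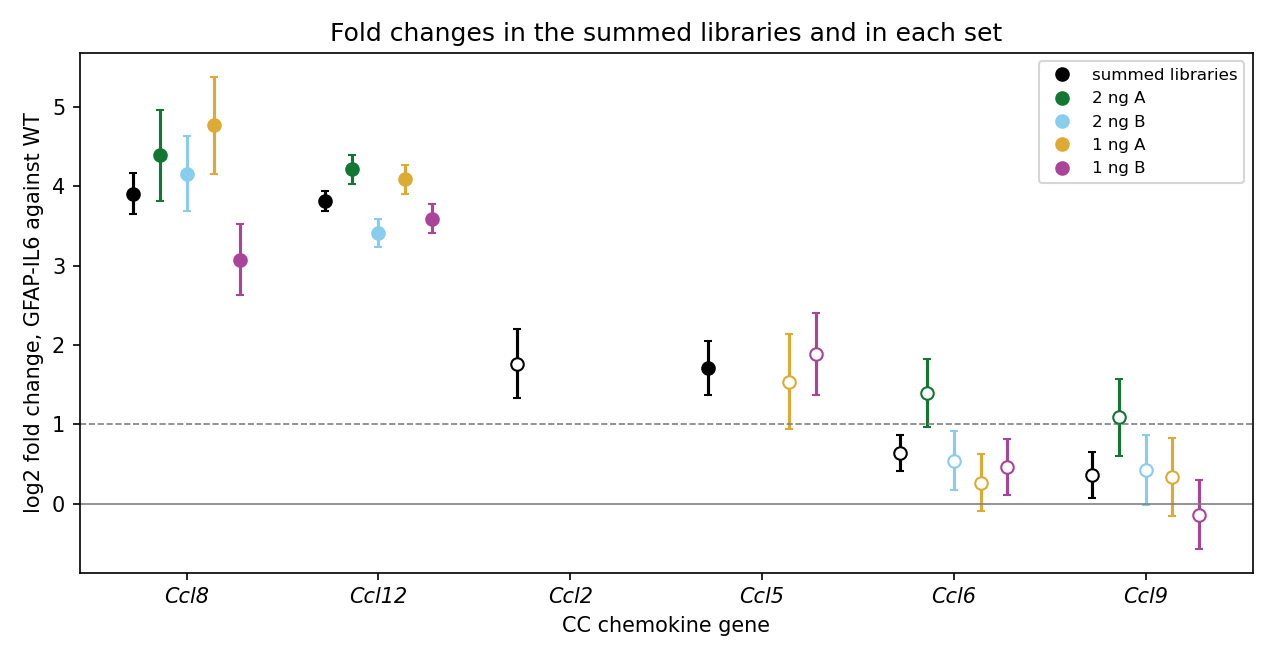
log2 fold change of GFAP-IL6 against WT for the 6 members tested, with bars of 1 standard error, in the summed libraries and in each of the 4 sets, filled where the gene was called and open where it was not. Ccl8 and Ccl12 lie between 3.08 and 4.77 in all sets, and the dashed line marks a log2 fold change of 1.

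Single libraries showed the same separation for the strongest members. Ccl12 ranged from 4.44 to 8.93 CPM (median 6.70) in the 12 WT libraries and from 68.5 to 129.1 CPM (median 88.8) in the 12 GFAP-IL6 libraries. Ccl8 ranged from 0 to 1.26 CPM (median 0.595) and from 5.86 to 15.5 CPM (median 9.77). For these genes all 12 GFAP-IL6 libraries lay above every WT library. That held for 9 of the 12 GFAP-IL6 libraries for Ccl5, for 5 for Ccl2 and for 5 for Ccl6. Ccl8 had no count in 2 WT libraries and Ccl2 in 4, and a library with 0 counts still allows up to 3.

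**Figure D4:**
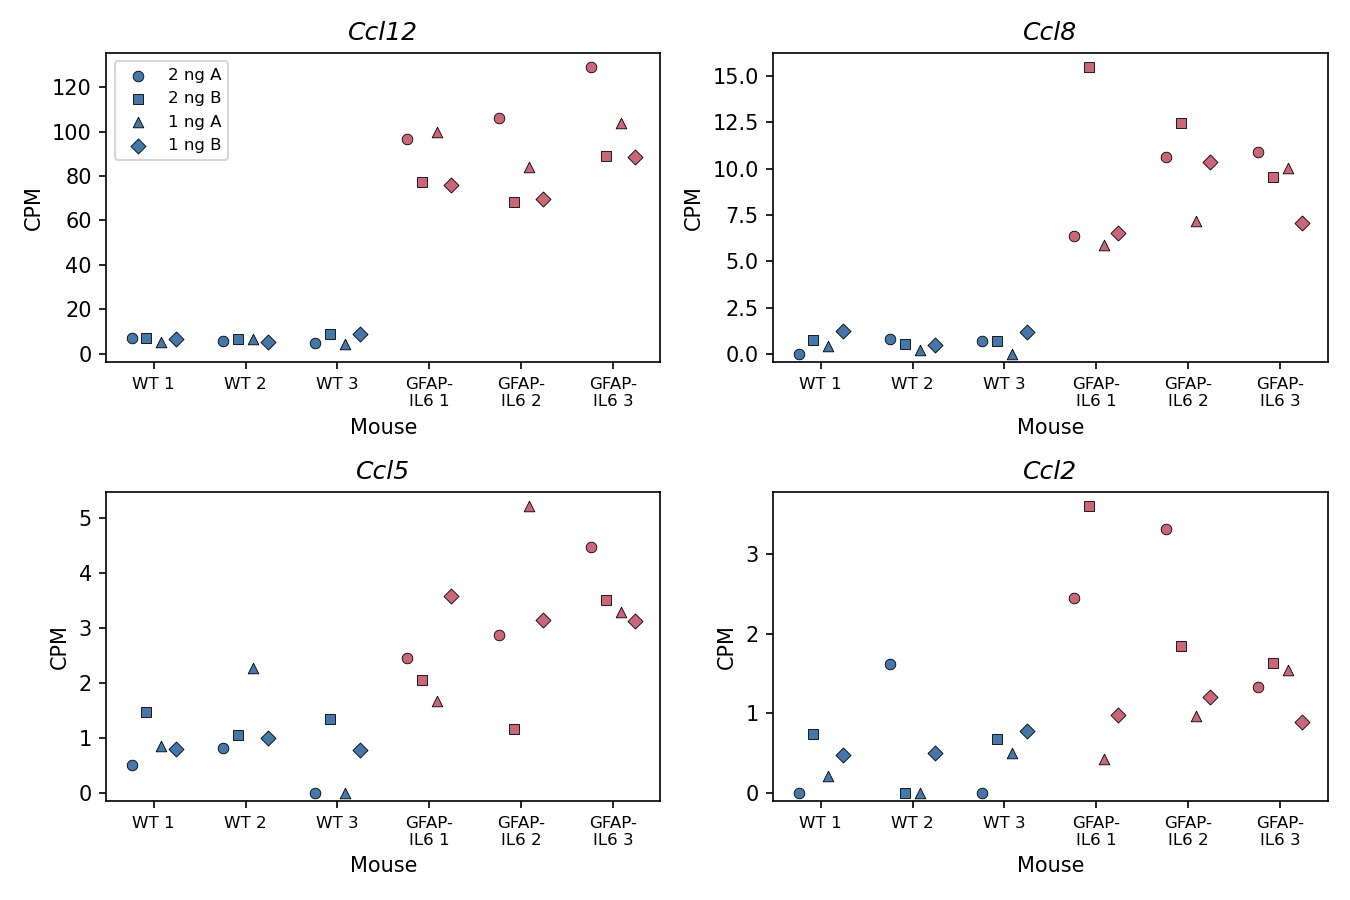
CPM of Ccl12, Ccl8, Ccl5 and Ccl2 in each of the 24 libraries, by mouse on the x axis (WT in blue, GFAP-IL6 in red), with circles for 2 ng A, squares for 2 ng B, triangles for 1 ng A and diamonds for 1 ng B. The 4 libraries of a mouse scatter most for Ccl2 and Ccl5, where the genotypes overlap, and for Ccl12 the circle and triangle lie above the square and diamond in each GFAP-IL6 mouse.

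The cDNA amount and the set were then compared within the same mice, and here a gene was called on an adjusted p under 0.05 alone, whatever its fold change. Without the mouse in the model no member was called for 2 ng against 1 ng (12.3% of all genes were) or for set A against set B (6.98% of all genes were). By edgeR the unadjusted p was under 0.05 for 1 of 6 members for the amount, Ccl2, and for 0 of 6 for the set. Over all genes it was so for 3392 of 13750 and for 2841 of 13934. DESeq2 called 0 members in either, but it gave an adjusted p to 6 members for the amount and to only 1 for the set. Over all genes it called 1891 and 1432. With the mouse as a block, which the shared RNA justifies, edgeR called Ccl12 in both contrasts, and 31.2% and 21.7% of all genes were called. Ccl12 was higher with 2 ng by 0.14 (SE 0.05, adjusted p = 0.0296) and higher in set A by 0.31 (SE 0.07, adjusted p = 0.000287) on the log2 scale. These shifts were small beside the genotype difference of 3.81.

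Ccl12 was higher in set A in each of the 3 GFAP-IL6 mice. Their mean level over both cDNA amounts was 98.2, 95.2 and 116.4 CPM in set A and 76.7, 69.2 and 88.8 CPM in set B. In the WT mice it was 6.05, 6.24 and 4.56 CPM in set A and 6.97, 5.97 and 8.83 CPM in set B. The genotype effect on Ccl12 differed by 0.61 between set A and set B on the log2 scale (SE 0.20), with an unadjusted p of 0.00294 by edgeR and an adjusted p of 0.993, which does not pass. By the same rule 0% of all genes were called for a genotype effect that varied by set and 0% for one that varied by cDNA amount. By edgeR the unadjusted p was under 0.05 for 1 and 0 members in these tests and for 597 and 538 genes, and DESeq2 called 0 genes in either.

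Receptors and binding proteins for these ligands were then examined. Ackr1, the decoy receptor of venules and red cells, was at 37.5 ± 4.57 CPM in WT and 54.7 ± 8.77 CPM in GFAP-IL6 mice (SD, n = 3 each), and its log2 fold change of 0.57 (adjusted p = 0.0234 by edgeR) was under the fold threshold.

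Ccr2, the receptor of Ccl2, Ccl7 and Ccl12 and a marker of monocytes, had 15 counts in WT and 60 in GFAP-IL6 mice. That was 0.301 ± 0.365 and 0.751 ± 0.346 CPM, a log2 fold change of 1.26 (SE 0.70, adjusted p = 0.668 by edgeR). Ccr1 had 15 and 70 counts, with a log2 fold change of 1.24 (SE 0.78, adjusted p = 0.732 by edgeR). Ccr8, the receptor of Ccl8, and Ccr4 had no counts in any library, and Ccr3, the receptor of Ccl11, had 3 counts in each genotype.

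Of 12 CC ligands in the table other than the 10, 4 could be tested and 0 were called in either direction by edgeR or by DESeq2. The unadjusted p was under 0.05 for 1 of them, Ccl17, and their median log2 fold change was -0.15. Ccl27a was at 275.0 ± 27.9 CPM in WT and 255.1 ± 10.9 CPM in GFAP-IL6 mice (SD, n = 3 each), a log2 fold change of -0.11 (SE 0.09). Ccl17, a Ccr4 ligand, was at 9.33 ± 1.30 and 6.23 ± 1.31 CPM. Its mice did not overlap, and its log2 fold change of -0.62 had an adjusted p of 0.21 by edgeR.

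Genes around the members were mostly too low to test. In the first block 3 of 11 neighbours could be tested and 0 were called by edgeR or DESeq2 or had an unadjusted p under 0.05, with Asic2, Tmem132e and Zfp830 at log2 fold changes of 0.12, -0.03 and -0.12. In the second block 1 of 5 tested neighbours rose. This was Wfdc17, next to Ccl4, which encodes a small protein with a WAP domain and was at 1.85 ± 0.454 CPM in WT and 7.26 ± 1.33 CPM in GFAP-IL6 mice (SD, n = 3 each). Its log2 fold change was 1.94 (SE 0.24, adjusted p = 0.000254 by edgeR). Wfdc18 beside it was at 13.6 ± 0.602 and 9.32 ± 1.34 CPM, with a log2 fold change of -0.53 (adjusted p = 0.105 by edgeR).

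**Figure D5:**
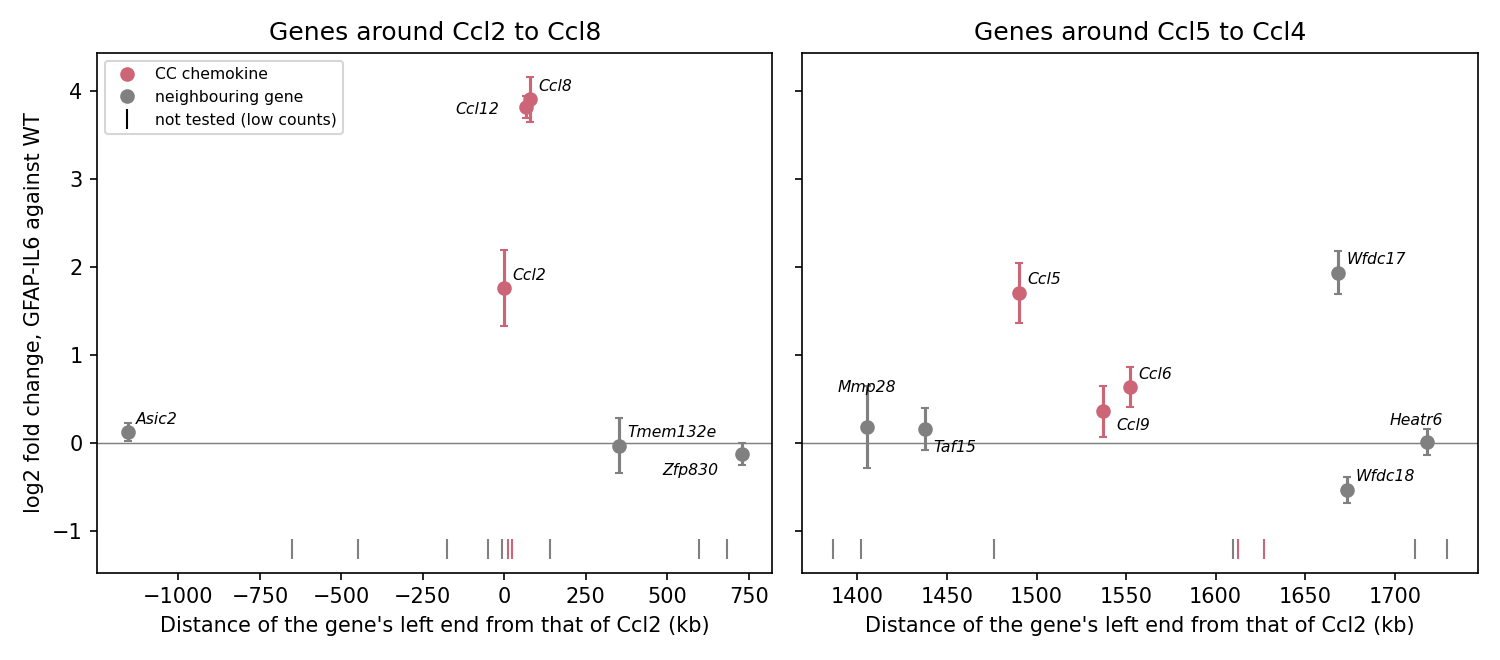
log2 fold change of GFAP-IL6 against WT, with bars of 1 standard error, for CC chemokines in red and neighbouring genes in grey, by the distance in kb of each gene's left end from that of Ccl2, with ticks for genes whose counts were too low to test. Ccl12 at 3.81 and Ccl8 at 3.91 stand next to each other, and Wfdc17 at 1.94 is the neighbour furthest from 0.

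Of 17 regulators of inflammatory transcription, such as NF-kB, STAT and IRF proteins, all could be tested, 3 rose and none fell, and the median log2 fold change was 0.44. Socs3, the feedback inhibitor of signalling by interleukin 6, was at 1.17 ± 0.136 CPM in WT and 3.36 ± 1.72 CPM in GFAP-IL6 mice (SD, n = 3 each), a log2 fold change of 1.62 (SE 0.37, adjusted p = 0.0329 by edgeR). Cebpd, a transcription factor of the acute phase response, was at 7.80 ± 0.204 and 18.1 ± 4.74 CPM, a log2 fold change of 1.25 (SE 0.18, adjusted p = 0.000809 by edgeR). Irf8, a factor of microglia and other myeloid cells, was at 4.51 ± 0.881 and 10.7 ± 3.31 CPM, a log2 fold change of 1.24 (SE 0.22, adjusted p = 0.00612 by edgeR). Stat3 had a log2 fold change of 0.49 (adjusted p = 0.0686 by edgeR) and Nfkb1 one of 0.33 (adjusted p = 0.764 by edgeR).

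Markers of the cells that could make these ligands moved with genotype in part. The 7 microglial markers summed to 363 to 407 CPM in WT and 579 to 733 CPM in GFAP-IL6 mice, and 1 of them, Aif1, was called higher. Cx3cr1 had a log2 fold change of 0.72 (adjusted p = 0.0119 by edgeR), under the fold threshold, and P2ry12 one of -0.02. The astrocyte markers summed to 1044 to 1146 and 1240 to 1373 CPM, and Gfap alone was called, with a log2 fold change of 2.44. That of Aqp4 was 0.52 (adjusted p = 0.134 by edgeR), and those of Slc1a3 and Slc1a2 were 0.11 each. Aldh1l1 was lower in GFAP-IL6 mice at -0.096, and its mice did not overlap. The endothelial markers summed to 24.2 to 29.5 and 36.9 to 48.2 CPM, with 0 of 4 called by edgeR or DESeq2 and 3 at an unadjusted p under 0.05. Of these Flt1 had a log2 fold change of 0.70 (adjusted p = 0.00637 by edgeR), under the fold threshold. Markers of border macrophages, which express Ccl8 in several tissues, summed to 10.2 to 12.9 and 9.39 to 12.4 CPM. Most of that was Pf4, at means of 7.56 and 6.03 CPM. Neither tool called any of the 5, and 1 had an unadjusted p under 0.05 by edgeR. It was Lyve1, which was lower in GFAP-IL6 mice, with a log2 fold change of -1.16 (SE 0.54). The part of these cells in the chemokine levels was not tested.

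Markers of infiltrating leukocytes were at low levels. The 5 monocyte markers summed to 3.43 to 4.86 CPM in WT and 4.13 to 5.38 CPM in GFAP-IL6 mice, most of it Vcan, which was at 3.92 and 3.25 CPM. The other 4 had higher means in GFAP-IL6 mice on few counts, with 15 and 60 counts for Ccr2, 4 and 34 for Plac8, 1 and 18 for Ly6c2 and 1 and 11 for Chil3. The mice did not overlap for Plac8, and of these 4 Ccr2 alone could be tested. The 5 neutrophil markers summed to 0.394 to 3.27 and 1.27 to 4.98 CPM, with Ly6g and Mmp8 at 0 in all libraries. The 8 T and NK cell markers summed to 0.525 to 3.88 and 2.23 to 3.06 CPM. On average the largest part was Cd4, with 79 counts in WT and 83 in GFAP-IL6 mice. Means were higher in GFAP-IL6 mice, on few counts, for Cd3e (1 and 8), Cd3d (1 and 13) and Cd3g (2 and 23). The same held for Cd8a (0 and 6), Nkg7 (7 and 26) and Ncr1 (0 and 7), but not for Gzma (9 and 11). The mice did not overlap for Cd3d and Nkg7, and of the 8 Cd4 alone could be tested. The 5 B and plasma cell markers summed to 0.525 to 1.27 and 0.959 to 1.53 CPM, and the 4 mast cell markers to at most 0.336 CPM. Of these lists 0 genes were called by edgeR or DESeq2, and 0 had an unadjusted p under 0.05 among the few that could be tested.

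Finally, the genes most like the members were sought by Pearson's r over the 24 libraries, between log2(CPM + 1) values, among 10753 genes with a mean of at least 5 CPM. The libraries fall into 2 genotypes and 6 mice, so these r values mainly rank genes that differ between genotypes. For the 10 genes summed, the closest were Scgb3a1 (r = 0.974), C4b (r = 0.974), Ctss (r = 0.966), C1qb (r = 0.965) and Fcgr4 (r = 0.965). C4b and C1qb encode complement proteins, Ctss encodes cathepsin S of microglia and Fcgr4 an Fc receptor of myeloid cells. Scgb3a1 encodes a secretoglobin and was at 4.99 CPM in WT and 100.1 CPM in GFAP-IL6 mice. For Ccl12 alone the order was Scgb3a1, C1qc, C4b, Ctss and Fcgr4, with r from 0.971 to 0.982. For Ccl8 alone it was Scgb3a1, C4b, Lrg1, Ctss and C1qc, with r from 0.955 to 0.971.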

How the data were processed

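The authors trimmed polyA stretches, aligned the reads to mm10 with STAR (version 2.4 per the labels), counted them on GENCODE vM6 genes with featureCounts, and deposited raw counts per gene and library, with no normalization. The labels also list hg19, but the gene identifiers are those of mouse. The strand setting of the counting is not given in the sources used here. Reads carry no molecular identifiers, so intervals and the floor of 3 counts cover counting error only.

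The members and gene lists were chosen with earlier results of these data known. Named from each list were up to 4 called genes, those furthest from 0 on the log2 scale, and any gene a sentence turns on. Neighbours were genes between the members of a block or among the 5 nearest on each side. Counts were summed per mouse, and tested by edgeR 4.0.16 (R 4.3.3) with TMM, filterByExpr and the quasi-likelihood test. The cDNA amounts and sets were compared with genotype in the model, and with the mouse as a block, since these libraries share an animal. Alternatives were DESeq2 1.42.0, which the paper's methods name, limma 3.58.1, other filters, scalings and thresholds, a block of same-numbered mice, and leaving out each mouse. The tests were first run on simulated data with known changes. Positions, exons and coding windows came from GENCODE vM21 on the same build, promoters from RefSeq, and copies from minimap2 2.31-r1302. Python 3.11.15 with scipy 1.17.1 was used for exact tests. The ERCC spike-ins and TruSeq libraries are not analysed here. Some items of the gene lists are not reported here.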

Additional observations from a re-analysis of the deposited data

How the results depend on the processing

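Across 96 alternatives to the counts of members called, 88 stayed within 1.5 times and 8 did not, and the count of members with WT and GFAP-IL6 mice apart stayed within 1.5 times in all 7 of its alternatives. With at least 10 counts required in every library, 1 member was called in the summed libraries, 0 in 2 ng A, 1 in 2 ng B, 0 in 1 ng A and 1 in 1 ng B, since that filter left 3, 0, 1, 0 and 1 members to test. Without a filter on low counts 4 members were called in 2 ng A, where Ccl5 and Ccl6 joined Ccl12 and Ccl8. With the mouse as a block, 1 member was called for 2 ng against 1 ng and 1 for set A against set B, in each case Ccl12. Same-numbered WT and GFAP-IL6 mice share only a number, with correlations of their deviations of -0.05, -0.04 and -0.06, and with them as a replicate block 3 members were called in the sums. Leaving out each mouse gave 2 to 3 members called in the sums. The log2 fold change of Ccl12 stayed between 3.71 and 3.94 over 14 alternatives and that of Ccl8 between 3.76 and 4.30 over 13, and both kept their call in each. That of Ccl5 stayed between 1.55 and 2.04 and that of Ccl2 between 1.59 and 1.91, with the changes of call given in the report; the cause was not tested. Ccl3, Ccl4, Ccl7 and Ccl11 had at most 31 counts per genotype, which limits what can be said of them.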
